A study of Mus musculus with 72 samples.

Results

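The distal end of mouse chromosome 6 was examined across an allele-specific RNA time course, because its genes did not keep equal output from the parental chromosomes in every culture. Its members were all genes of the count tables that lie on chromosome 6 with a start at or past 120 Mb, with Nanog left out, which gave 368 of 22556 genes and 368 of the 1228 genes of the chromosome. A member was called informative where at least 10 fragments could be assigned to a parental allele in at least 80% of replicates and its median Cast share, that is Cast fragments over Cast plus Dom fragments, lay between 0.1 and 0.9. This held for 147 members, of 600 informative genes on the chromosome and 12057 in all. Of the other members 220 had too few allelic fragments and 1 (Rps4l) lay outside the share limits, and 26 members had no fragment in any library.

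Chromatin-associated RNA-seq (ChrRNA-seq), which enriches nascent transcripts, was performed on female mouse embryonic stem cells (mESCs) from a cross of 129S (Dom) and Castaneus (Cast) mice. In the iXist-ChrX-Dom line a doxycycline-responsive TetOn promoter replaced the Xist promoter of the 129S allele, and in the iXist-ChrX-Cast line that of the Cast allele. All samples carried such an allele, and doxycycline was given through neural precursor cell (NPC) differentiation in every sample but the uninduced mESCs. The wild-type (WT) lines were A11B2 (Dom) and C7H8 (Cast), and the SmcHD1 knockout (KO) lines made by CRISPR-Cas9 were the single clones A3 in iXist-ChrX-Dom and D5 and G6 in iXist-ChrX-Cast, so that a property of the clone and an effect of the KO cannot be told apart in any of them. Days 2, 3, 5 and 7 had 2 replicates per clone, or 3 of Cast WT at days 3, 5 and 7, days 15, 21 and 35 had 1 per clone, day 52 had 1 of Dom WT and of A3, and uninduced mESCs were sampled for A3 (2), D5 (2) and G6 (1). The 72 libraries made 65 replicates once the libraries labelled R1 and R2 of a D5 or G6 replicate were summed.

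Each autosomal gene is carried on both parental chromosomes and is as a rule transcribed from both, so that its Cast share lies near the middle of the scale. A share can move because one allele gives less RNA, because the other gives more, or both, and the fragments of each allele together with the total tell these apart. Mouse ES cells are known to gain or lose chromosomes or parts of them in culture, and the distal arm of chromosome 6 holds many genes used by pluripotent cells, among them Dppa3, Gdf3, Phc1 and Slc2a3, as well as glycolytic enzymes and large clusters of immune lectin-like receptors and taste receptors.

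Libraries held 9344054 to 31216487 fragments in iXist-ChrX-Dom and 13211298 to 31107643 in iXist-ChrX-Cast, and 44.8 to 50.3% of fragments had an allele. The median Cast share over informative genes of the other autosomes was 0.482 to 0.498 in every library. Pou5f1, Zfp42, Esrrb, Klf2 and Tfcp2l1, which mark ES cells, summed to 1149 to 1608 RPM, that is fragments scaled to the library total, in uninduced mESCs. Of 5 neural precursor markers, Nes was at 24.6 to 298 RPM from day 15. Its median rose from 13.4 RPM in uninduced mESCs to 95.8 at days 15 to 52, and that of Vim from 25.9 to 227. The median of Fabp7 rose from 0.076 to 1.60, while that of Pax6 fell from 4.74 to 0.868. Sox1 was at 0 in all libraries, and the reason was not tested. The NPC label thus rests on part of its markers. Genes chosen as feeder fibroblast markers summed to 4.68 to 20.1 RPM in uninduced mESCs and to 97.6 to 5518 RPM from day 15. Among these genes the median of Thy1 fell, from 1.44 to 0.32 RPM, while those of Col1a1, Col1a2, Twist2 and Postn rose. Which cells gave this RNA was not tested. Smchd1 RNA was not lost in the KO clones, with a median of 551 RPM in A3 against 566 in Dom WT and of 552 in D5 and 564 in G6 against 615 in Cast WT at days 2 to 7, so the RNA level does not check the KO.

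Genes at or near the places where the Cast share changed are shown first, since these places define the changed parts. For each, the 200 bases before the RefSeq start on the GRCm38.p6 build (mm10) are given 5′ to 3′ on the strand of the gene, with CG dinucleotides in capitals. Pex26 (chr6:121183467-121183666, plus strand) and Sox5 (chr6:143947107-143947306, minus strand) hold 6 and 2 CG dinucleotides. Etnk1 (chr6:143167030-143167229, plus strand) holds 25, Mettl20, which RefSeq calls Etfbkmt (chr6:149141313-149141512, plus strand), 11, and Amn1 (chr6:149188696-149188895, minus strand) 9. Over 32851 RefSeq promoters the median in this window was 5.0, and 50.8% held at least 5. The RefSeq start of Sox5 lies 262462 bases inside the gene as counted. Of the 368 members 280 had a RefSeq promoter. A2m and M6pr, which flank the proximal change in Dom WT replicate 2, had none, and Pex26, the informative gene before A2m, is shown in their place.
Pex26: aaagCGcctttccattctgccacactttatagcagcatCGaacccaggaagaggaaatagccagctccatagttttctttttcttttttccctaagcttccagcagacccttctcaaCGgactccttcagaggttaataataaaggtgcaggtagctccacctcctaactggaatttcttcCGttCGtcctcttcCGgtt
Etnk1: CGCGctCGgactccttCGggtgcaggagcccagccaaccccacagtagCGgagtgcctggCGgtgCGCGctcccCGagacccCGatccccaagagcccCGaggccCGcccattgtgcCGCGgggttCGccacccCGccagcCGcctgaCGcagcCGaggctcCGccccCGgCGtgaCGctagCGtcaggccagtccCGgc
Sox5: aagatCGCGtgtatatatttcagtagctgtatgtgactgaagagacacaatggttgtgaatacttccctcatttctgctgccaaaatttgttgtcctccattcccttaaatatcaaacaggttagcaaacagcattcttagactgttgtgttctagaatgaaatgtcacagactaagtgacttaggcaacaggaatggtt
Mettl20: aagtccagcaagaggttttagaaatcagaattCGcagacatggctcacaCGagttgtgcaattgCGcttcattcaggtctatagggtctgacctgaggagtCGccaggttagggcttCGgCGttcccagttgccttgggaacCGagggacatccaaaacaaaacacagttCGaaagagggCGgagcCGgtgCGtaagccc
Amn1: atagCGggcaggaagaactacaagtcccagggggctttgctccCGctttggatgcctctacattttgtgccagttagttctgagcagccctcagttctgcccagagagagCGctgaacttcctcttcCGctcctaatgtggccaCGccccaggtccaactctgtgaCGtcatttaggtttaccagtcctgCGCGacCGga

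The Cast share along the distal arm changed in steps in a few courses and was flat in the rest. The days 2 to 7 of each replicate number were summed as 1 course, and every uninduced or late library was 1 course, which gave 33 courses. A step was read where the medians of neighbouring runs of at least 8 informative genes differed by at least 0.10, so the shares by part are a description of what set the borders. Steps were found in 4 courses, Dom WT replicate 2 and the Dom WT libraries of days 21, 35 and 52, and in none of the other 29.

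In Dom WT replicate 2 the share stepped up by 0.125 between A2m, which encodes a protease inhibitor of blood plasma and ends at 121679238, and M6pr, which encodes a mannose 6-phosphate receptor and starts at 122309009. It stepped down by 0.504 between Etnk1, an ethanolamine kinase gene that ends at 143208547, and Sox5, a gene for a SOX transcription factor that starts at 143828424. The distal border of this course was the same under each setting tried, whereas the proximal one lay between Pex26 and A2m (step 0.144) when shares were set against the mean of Dom WT replicate 1, and between M6pr and Phc1 (step 0.125) with parts of at least 15 genes. No informative gene lies between A2m and M6pr or between Etnk1 and Sox5. The macroglobulin genes Mug1 and Mug2 lie in the first of these gaps, and too few of their fragments had an allele for a share. These parts followed, Ninj2 to A2m (26 members, 14 informative, 1.59 Mb), M6pr to Etnk1 (294 members, 103 informative, 20.9 Mb) and Sox5 to Bicd1 (48 members, 30 informative, 5.73 Mb).

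**Figure D1:**
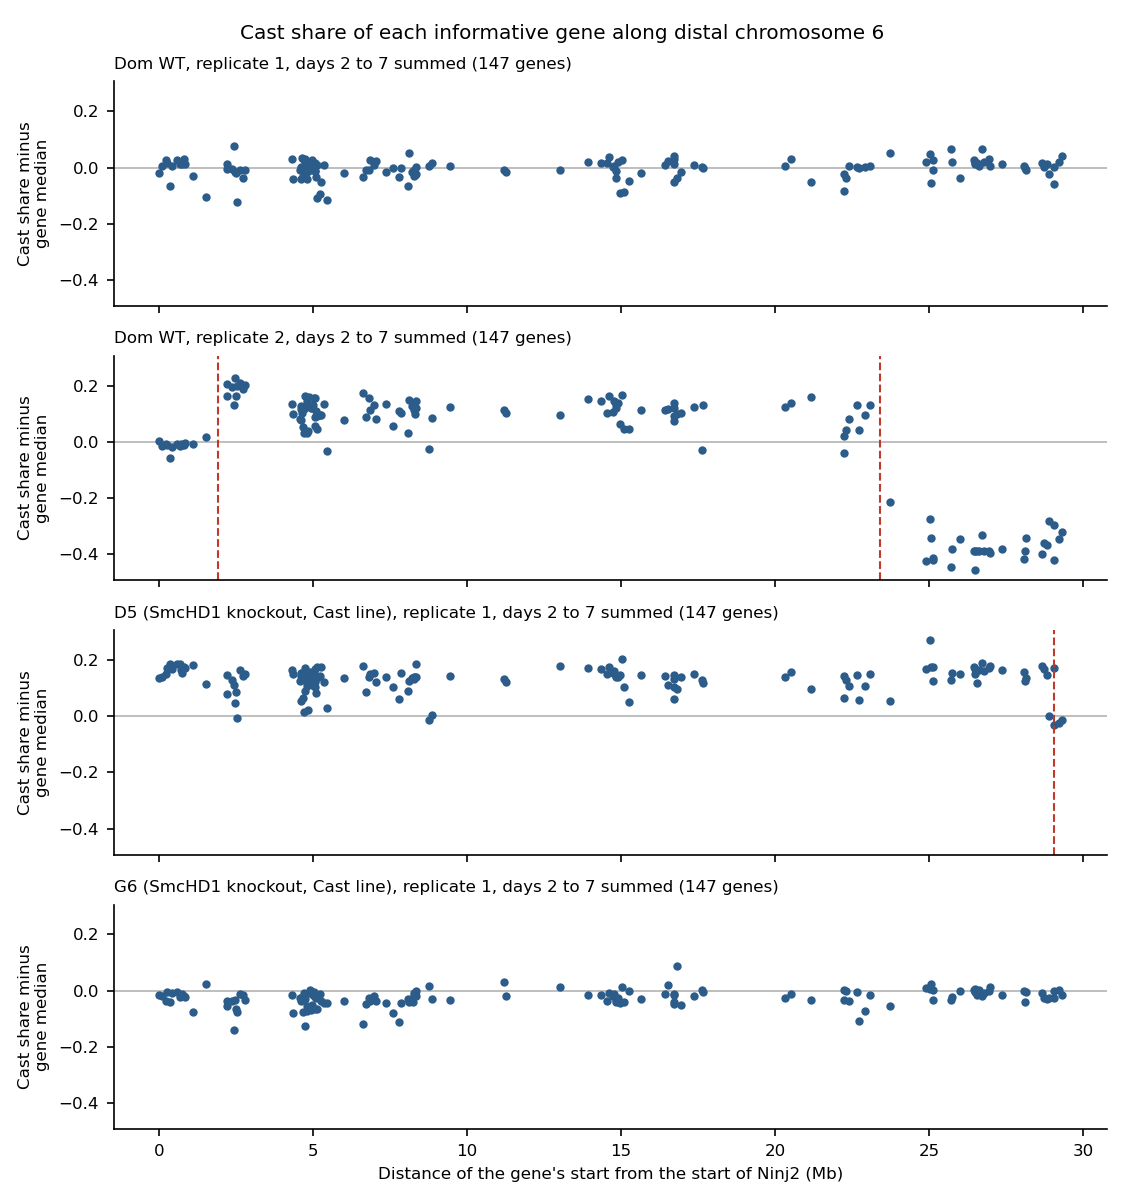
Cast share of each informative distal chromosome 6 gene minus the median of that gene over all replicates (y axis, share units) by gene start (x axis, Mb), with days 2 to 7 summed, in Dom WT replicate 1, Dom WT replicate 2, D5 replicate 1 and G6 replicate 1. Dashed lines are the borders. Replicate 2 of Dom WT steps up by 0.125 at M6pr and down by 0.504 at Sox5, D5 lies above its reference up to Mettl20, and the other courses are flat.

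The same distal border, Etnk1 to Sox5, was found at days 21, 35 and 52 of Dom WT, with steps of -0.57, -0.49 and -0.43. The proximal border was A2m to M6pr at day 21 and Pex26 to M6pr at day 52, and at day 35 it lay further in, between Mfap5, a microfibril gene that ends at 122529287, and Apobec1, a cytidine deaminase gene that starts at 122577791. Day 35 had a further step of -0.12 between Clstn3 and Lpcat3. With steps down to 0.05 allowed, replicate 2 had an extra step of -0.0828 between Necap1 (end 122888941) and Pex5 (start 124396815), across a run of lectin receptor and vomeronasal receptor genes without a share, which divides the raised part into M6pr to Necap1 (10 informative genes) and Pex5 to Etnk1 (93).

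Within a part the replicates were alike from day to day. Median Cast shares of Pex5 to Etnk1 were 0.511, 0.510, 0.510 and 0.487 at days 2, 3, 5 and 7 of Dom WT replicate 1, and 0.606, 0.625, 0.618 and 0.628 in replicate 2. For M6pr to Necap1 they were 0.517, 0.507, 0.507 and 0.481 in replicate 1 and 0.711, 0.721, 0.721 and 0.734 in replicate 2. For Sox5 to Bicd1 they were 0.518, 0.515, 0.475 and 0.489 in replicate 1, and only 0.109, 0.107, 0.100 and 0.0780 in replicate 2. The courses did not overlap in any of these parts, and Ninj2 to A2m lay at 0.476 to 0.489 in replicate 2 and at 0.500 to 0.518 in replicate 1.

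The labels give the late Dom WT libraries no replicate number, so it is not known whether they come from the same culture. In each KO clone the day 15 library carries another replicate number than the later ones. The Dom WT library of day 15 had no step, whereas those of days 21, 35 and 52 did. A change with time and a change of culture cannot be told apart here. At day 15 the medians of M6pr to Necap1, Pex5 to Etnk1 and Sox5 to Bicd1 were 0.500, 0.486 and 0.497. At days 21, 35 and 52 they were 0.746, 0.723 and 0.719 for M6pr to Necap1, 0.631, 0.606 and 0.603 for Pex5 to Etnk1, and 0.0457, 0.0905 and 0.152 for Sox5 to Bicd1. In bulk RNA a mixture of cells with and without a change and a partial change in each cell cannot be told apart, nor can fewer cells and less RNA per cell. In the 45 replicates other than D5 and these 7 of Dom WT, the medians were 0.458 to 0.512 for M6pr to Etnk1 and 0.448 to 0.518 for Sox5 to Bicd1.

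**Figure D2:**
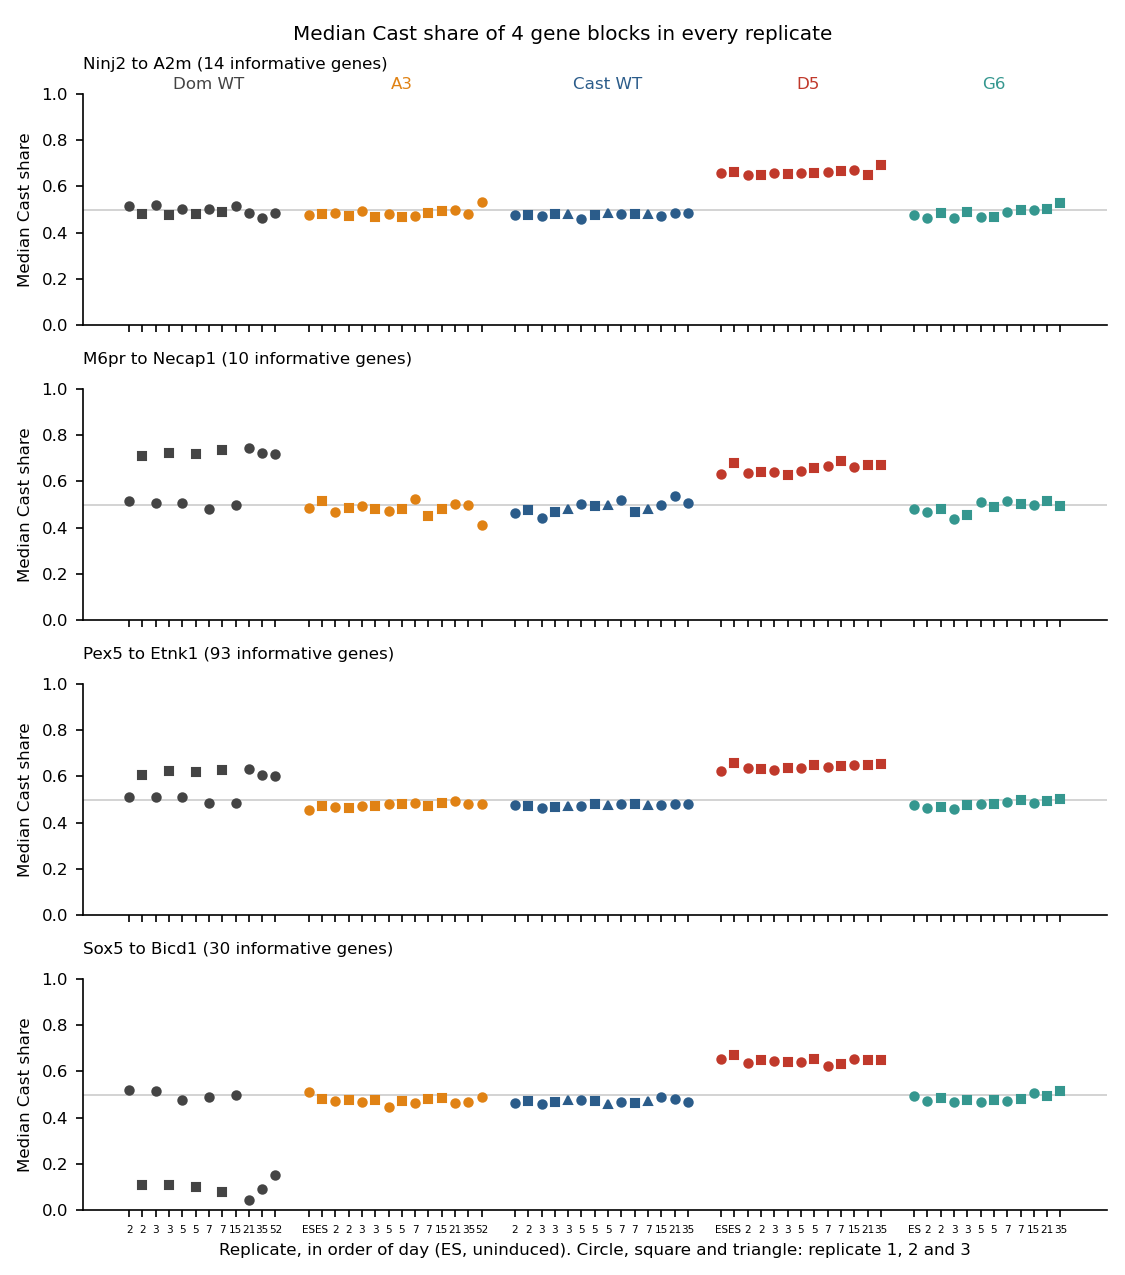
Median Cast share over the informative genes of 4 blocks (y axis, 0.5 marked by a line) for every replicate by day (x axis), coloured by clone, with circles, squares and triangles for replicates 1, 2 and 3. Dom WT replicate 2 and Dom WT from day 21 lie apart in M6pr to Necap1, Pex5 to Etnk1 and Sox5 to Bicd1 (0.0457 to 0.152), and D5 lies above Cast WT and G6 of the same days in all blocks.

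In D5 nearly the whole distal arm leaned to the Cast allele at every time, from uninduced mESCs to day 35. The median Cast share of Ninj2 to Mettl20, 144 informative genes, was 0.639 to 0.663 over 13 D5 replicates (median 0.647), against 0.466 to 0.482 in Cast WT and 0.463 to 0.493 in G6 at days 2 to 7. The 45 replicates named above spanned 0.463 to 0.517, so that D5 did not overlap them. It was 0.648 to 0.666 for Ninj2 to A2m, 0.633 to 0.649 for M6pr to Etnk1 and 0.622 to 0.654 for Sox5 to Bicd1 at days 2 to 7, with no step at the Dom WT borders.

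The D5 change had an end of its own. Amn1, 2810474O19Rik and Bicd1, the last 3 members, had a median share of 0.390 to 0.429 in D5 at days 2 to 7, against 0.370 to 0.430 in Cast WT and 0.406 to 0.447 in G6 on these days, so the clones overlapped there. A border needs 8 genes under the rule above and could not be read for so short a part. With a minimum of 3 genes, chosen after the shares were seen, both D5 courses of days 2 to 7 had a border between Mettl20 (end 149151170), which encodes a mitochondrial lysine methyltransferase, and Amn1 (start 149157576). Uninduced replicate 1 and days 15 and 21 of D5 had it too. Uninduced replicate 2 had no border in this setting, and day 35 had borders elsewhere only. With all informative genes of the chromosome, every one of 7 D5 courses had a proximal border between Erc1 (end 119848150) and Rad52 (start 119902697), just outside the members. Wnk1, the last gene before 120 Mb (start 119923968), had a Cast share of 0.647 to 0.676 in D5 and 0.482 to 0.502 in Cast WT, and Ninj2, the first past it (start 120093379), of 0.604 to 0.819 and 0.500 to 0.692 on far fewer fragments. With a minimum of 5 genes the distal border of both days 2 to 7 courses lay between Fam60a and Dennd5b. With steps down to 0.05 allowed it lay between Tmtc1 and Ipo8, so its exact place depends on the setting.

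Fragments of each allele were compared to see which of them carried the change. They were scaled by the trimmed mean of M values (TMM) and averaged over days 2, 3, 5 and 7 for each gene, the ratio of these averages between courses was taken, and its median over the genes of a part is given. In Dom WT replicate 2, Pex5 to Etnk1 had a Cast ratio of 1.59 to replicate 1, a Dom ratio of 0.996 and a total ratio of 1.29. In M6pr to Necap1 the ratios were 2.41 for Cast, 1.03 for Dom and 1.66 for the total. In Sox5 to Bicd1 they were 0.104, 0.946 and 0.545. In Pex5 to Etnk1 and Sox5 to Bicd1 the Cast allele thus moved while the Dom allele stayed near 1, as it did for 11187 informative genes of the other autosomes (0.974, with 0.989 for Cast and 0.985 for the total). Ninj2 to A2m had 0.982, 1.05 and 1.03.

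Medians taken on each day, over only 10 genes in M6pr to Necap1, were higher than these in that block on both alleles. The Cast ratio was 2.46, 2.49, 2.41 and 3.14 at days 2, 3, 5 and 7, and the Dom ratio 1.17, 1.08, 1.07 and 1.36, so the Dom allele was above 1 on each day there. For Sox5 to Bicd1 the Cast ratio was 0.119 at day 2 and 0.0845 at day 7, and the Dom ratio 0.977 and 0.925. In D5 over Cast WT the ratios of the day averages of Ninj2 to Mettl20 were 2.06 for Cast, 1.01 for Dom and 1.51 for the total, and those of Amn1 to Bicd1 were 1.04, 0.951 and 1.01. The Cast allele of the long part was raised in D5 with no like move of the Dom allele, and the ratios of the last 3 genes were near 1 for both alleles.

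Total RNA of the members followed the same parts. Between the Dom WT courses, edgeR's quasi-likelihood test with day as a factor called 34 of 208 members tested higher in replicate 2 (3.87% of all genes tested were called higher) and 24 lower (2.43%). Members of M6pr to Etnk1 had a median log2 fold change of 0.43 (quartiles 0.18 and 0.71), with 138 of 152 above 0, 33 called higher and 1 lower. Members of Sox5 to Bicd1 had a median of -0.84, with 1 of 37 above 0, none called higher and 23 lower. Ninj2 to A2m had a median of 0.04 and 1 of 19 called higher, and the median over all genes was 0.0025. The study describes the replicates as repeat time courses, and the 4 libraries of a replicate here are 4 days of 1 such course, so these p-values measure the spread over days between a pair of courses.

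The Cast share was tested with limma over the same libraries and called 28 of 149 members higher in replicate 2 (background 0.659%) and 26 lower (0.453%). All 28 lay in M6pr to Etnk1, where the median difference was 0.12 over 104 genes, and all 26 in Sox5 to Bicd1, where it was -0.40 over 31. The borders were read from the shares of these replicate 2 libraries, so where the calls fall by part is a description. Of the genes of M6pr to Etnk1 tested on both measures 10 passed on both, 18 on the share alone and 21 on total RNA alone. In Sox5 to Bicd1 22 of 31 passed on both. The higher calls rest on all libraries. Without any 1 of the 8 libraries no member was called higher on the share (15 to 18 calls, all lower), and total RNA calls fell to 8 of 229 and 8 of 228 without the day 5 library of replicate 1 or 2 and to 30 and 29 without that of day 3, with 93 to 113 members at an unadjusted p under 0.05. Feeder markers (5 genes summed) were at 6.72 to 43.1 RPM in replicate 1 and 8.07 to 27.8 in replicate 2, and their part in the result was not tested.

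**Figure D3:**
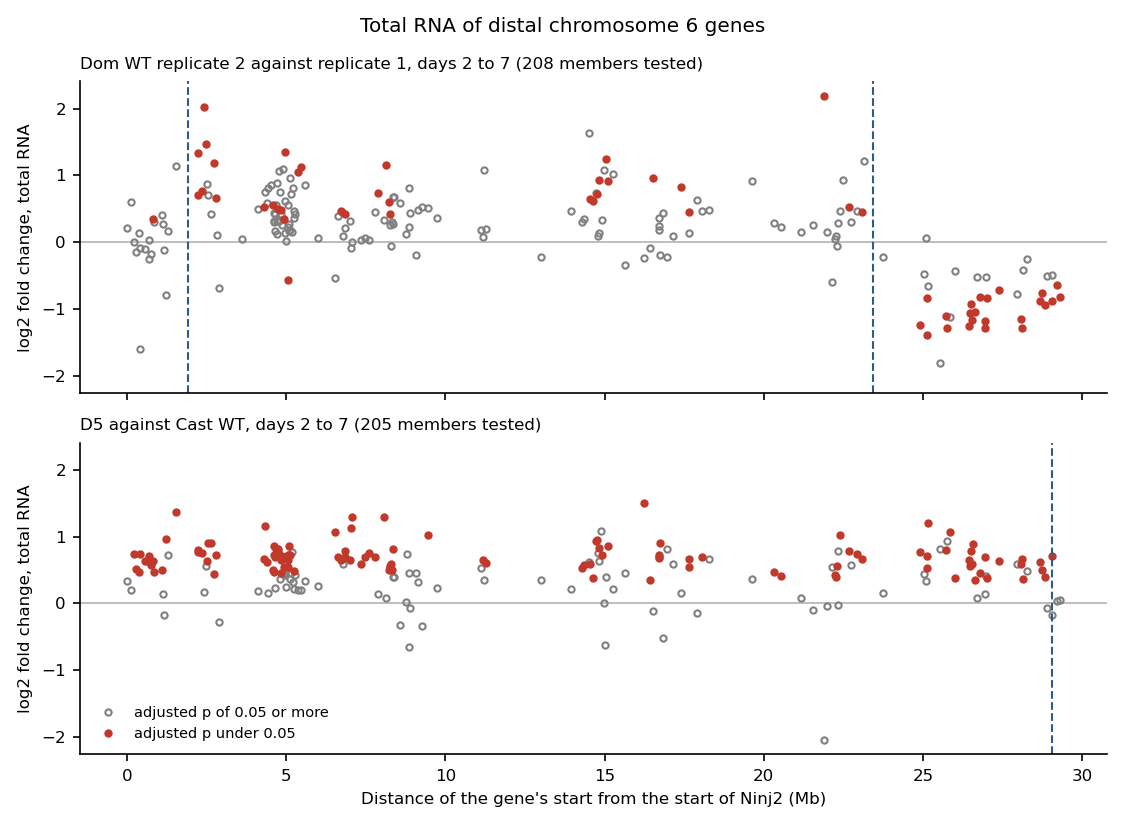
Log2 fold change of total RNA (y axis) of members by gene start (x axis, Mb) for Dom WT replicate 2 against replicate 1 (208 members, top) and D5 against Cast WT (205 members, bottom), with members past an adjusted p of 0.05 filled in red and borders dashed. Members lie around 0.43 from M6pr to Etnk1 and around -0.84 from Sox5 to Bicd1 in the top panel, and around 0.58 up to Mettl20 in the bottom panel.

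The pluripotency and germ line genes sit in the raised proximal block, and 2 of 5 tested were called higher on total RNA, none lower (median log2 fold change 0.87). Phc1, a subunit of Polycomb repressive complex 1, was at 248, 230, 143 and 90.8 RPM at days 2, 3, 5 and 7 of Dom WT replicate 1 and at 608, 612, 328 and 241 in replicate 2. Replicate 2 was higher on each day, by a log2 fold change of 1.34 (SE 0.08, adjusted p = 0.00163), and its Cast share was 0.705 to 0.744 against 0.486 to 0.532 (adjusted p = 0.0179). Apobec1 was at 9.55, 9.27, 5.69 and 6.71 RPM in replicate 1 and 23.8, 20.9, 17.6 and 22.4 in replicate 2, without overlap (1.47, SE 0.13, adjusted p = 0.00399). Dppa3, which marks early germ cells and naive pluripotent cells, had a Cast share of 0.812, 0.848, 0.811 and 0.822 in replicate 2 against 0.408 to 0.652 in replicate 1, without overlap, but neither its share (adjusted p = 0.0872) nor its total RNA (0.71, adjusted p = 0.184) passed. Gdf3, a ligand of the TGF-beta family, and Slc2a3, a neuronal-type glucose transporter, passed on the share only (0.18, adjusted p = 0.0179, and 0.21, adjusted p = 0.0155).

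M6pr, the first gene past the proximal border, was at 42.1, 47.4, 48.3 and 41.8 RPM in replicate 1 and at 69.5, 75.3, 69.3 and 76.6 in replicate 2, with no overlap (log2 fold change 0.71, SE 0.09, adjusted p = 0.0079). Its Cast share was 0.338, 0.382, 0.323 and 0.292 in replicate 1 and 0.510, 0.547, 0.480 and 0.414 in replicate 2. Most of its allelic RNA came from the Dom allele in replicate 1, and the difference was 0.154 (adjusted p = 0.0263). Other high changes of the block were Mfap5 (2.02, adjusted p = 0.00547) and Foxj2, a forkhead transcription factor gene (1.19, adjusted p = 0.0079). Among the called members past Pex5 the highest were Gm6614 (2.19), Lpar5, a lysophosphatidic acid receptor gene (1.35), and Hebp1, a heme-binding protein gene (1.25, adjusted p = 0.00475). Tead4, a partner of YAP in the Hippo pathway, was at 22.9, 20.3, 12.4 and 19.9 RPM in replicate 1 and at 41.3, 39.2, 39.5 and 44.5 in replicate 2 (1.16, adjusted p = 0.00783).

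Genes at the other ends of the raised blocks behaved alike. Necap1, an endocytosis gene and the last of the proximal block, was at 27.4, 27.2, 26.1 and 24.1 RPM in replicate 1 and at 38, 41.5, 40.7 and 44.9 in replicate 2, without overlap (log2 fold change 0.67, SE 0.10, adjusted p = 0.0132). Pex5, which encodes the import receptor of peroxisomes, had a change of 0.52 (SE 0.10, adjusted p = 0.0275). The share of Necap1 differed by 0.21 (adjusted p = 0.0342), and that of Pex5 by 0.10, which did not pass (adjusted p = 0.204). Etnk1, the last gene before the fall, was at 378, 318, 260 and 235 RPM in replicate 1 and at 434, 409, 405 and 344 in replicate 2, so the courses overlapped across days while replicate 2 was higher on each day (0.45, SE 0.10, adjusted p = 0.0379). Its Cast share was 0.510 to 0.525 in replicate 1 and 0.639 to 0.647 in replicate 2, without overlap. Just proximal of the raised part, Pex26, a peroxisome assembly gene, and A2m had changes of 0.41 and 1.14 that did not pass (adjusted p = 0.230 and 0.107). The share of Pex26 differed by 0.03. For A2m the ratio of replicate 2 to replicate 1 was 2.07 for Cast fragments and 1.24 for Dom fragments. Against the reference mean the border lay before A2m, so its place in either part depends on the setting.

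Some genes of the raised part departed from its median, among those with a mean of at least 50 allelic fragments. Gapdh, which encodes a glycolytic enzyme and has near-identical pseudogenes that can take up reads, was the 1 member of M6pr to Etnk1 called lower. It was at 203, 175, 204 and 145 RPM in replicate 1 and at 99.8, 154, 146 and 95.4 in replicate 2, and the courses overlapped (log2 fold change -0.56, SE 0.13, adjusted p = 0.0428). Its Cast share was nonetheless 0.436, 0.466, 0.414 and 0.411 in replicate 1 and 0.529, 0.537, 0.561 and 0.499 in replicate 2. Total RNA and share of Gapdh therefore pointed apart, though the share difference of 0.0997 did not pass (adjusted p = 0.106). Its ratio of replicate 2 to replicate 1 was 0.682 for the total, 1.21 for Cast fragments and 0.798 for Dom fragments. The total ratio thus lay below that of either allele, and the reason was not tested. Grin2b, an NMDA receptor subunit gene, had a log2 fold change of -0.34 that did not pass. On the share, BC035044 (-0.04) and Strap (-0.02), both unpassed, lay farthest below the median of the part. Chd4, the helicase of the NuRD complex, had a log2 fold change of only 0.01 with a share of 0.604 to 0.658 against 0.460 to 0.501 (0.14, adjusted p = 0.0327).

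In Sox5 to Bicd1 the fall of total RNA was seen in genes of several kinds. Bcat1, which transfers the amino group of branched-chain amino acids, was at 235, 161, 206 and 157 RPM in replicate 1 and at 82.0, 78.2, 86.3 and 68.4 in replicate 2 (log2 fold change -1.24, SE 0.09, adjusted p = 0.00186), and all values of replicate 2 were lower. Its share was 0.537 to 0.594 in replicate 1 and 0.0895 to 0.171 in replicate 2 (adjusted p = 0.00139).

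Among the called members of Sox5 to Bicd1 the lowest fold changes were those of Lyrm5 (-1.39), at 3.42 to 4.31 RPM in replicate 2 against 9.01 to 12.1 in replicate 1, of Bhlhe41, a circadian repressor gene (-1.29), and of 4732416N19Rik (-1.28). Asun (-1.25), Bcat1, Med21, a Mediator subunit gene (-1.16), Rep15 and Mrps35, a mitochondrial ribosome gene, were the others of the 8 lowest called. Among genes with a mean of at least 50 allelic fragments, those that departed upward were Casc1 and Sox5. Casc1 was at 1.86, 2.12, 3.47 and 4.48 RPM in replicate 1 and at 1.56, 2.01, 4.00 and 5.36 in replicate 2, so its courses overlapped (log2 fold change 0.06), while its Cast share differed by -0.28 (adjusted p = 0.0348). The ratio of replicate 2 to replicate 1 was 0.175 for its Cast fragments and 1.64 for its Dom fragments. Sox5 was at 6.77, 6.79, 5.17 and 14.1 RPM in replicate 1 and at 7.23, 5.40, 7.54 and 6.20 in replicate 2 (-0.22, not passed). The Cast share of Sox5 was 0.420 to 0.505 in replicate 1 and 0.404, 0.122, 0.178 and 0.0885 in replicate 2 (-0.28, adjusted p = 0.124), so the gene at the border was low in share at 3 of 4 days. Itpr2, an inositol trisphosphate receptor gene, Dennd5b and Lrmp had share differences closer still to 0, from -0.25 to -0.26, and only that of Dennd5b passed (adjusted p = 0.0155).

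**Figure D4:**
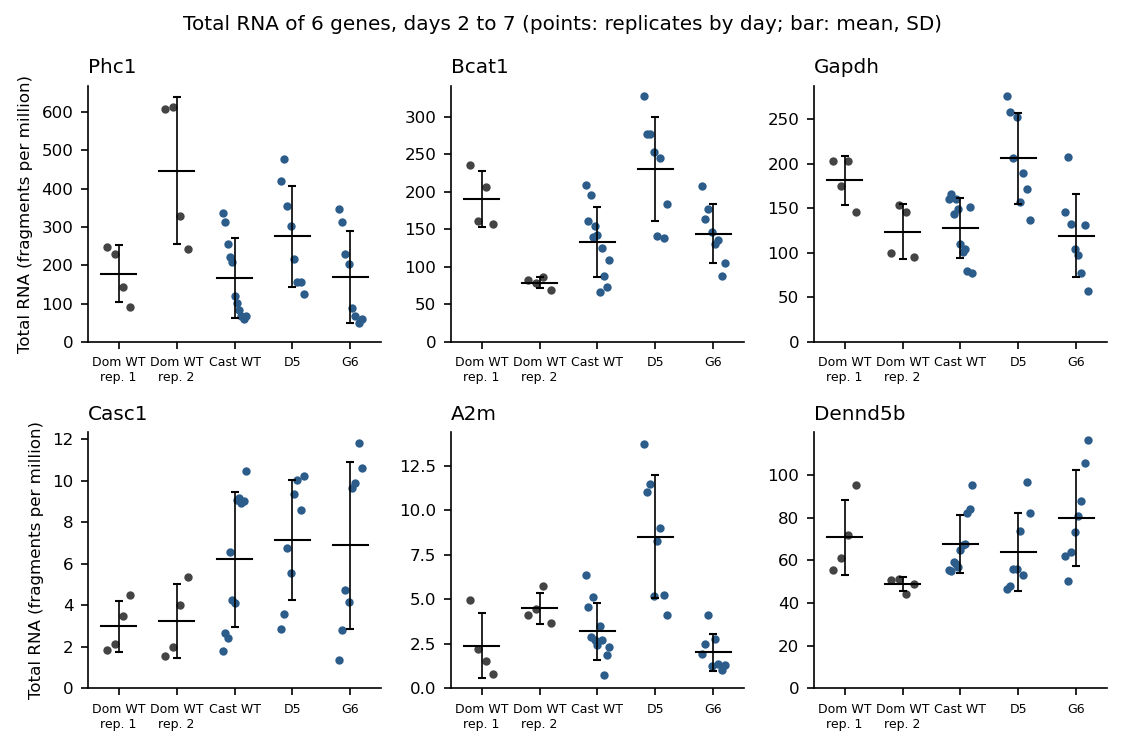
Total RNA in RPM (y axis) of Phc1, Bcat1, Gapdh, Casc1, A2m and Dennd5b in Dom WT replicate 1, Dom WT replicate 2, Cast WT, D5 and G6 at days 2 to 7, with 1 point per replicate and day, and bars for the mean with SD (n = 4, 4, 11, 8 and 8). Bcat1 is at 68.4 to 86.3 in Dom WT replicate 2 against 157 to 235 in replicate 1, while Casc1 overlaps between these courses and Dennd5b overlaps between D5 and Cast WT.

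Other lists written for the arm gave the following counts between the Dom WT courses. Over all members 34 of 208 were called higher on total RNA (3.87% of all genes tested) and 24 lower (2.43%). On the share 28 of 149 were called higher (0.659%). Of glycolysis and metabolism genes none of 6 was called higher and 2 lower, Gapdh and Bcat1 (median 0.27). Of cell cycle and growth genes 3 of 10 were higher and 1 lower (median 0.19), with Foxm1, a mitotic transcription factor gene, at 0.43 (adjusted p = 0.0338). Of chromatin and transcription genes 2 of 13 were higher and 2 lower (0.20). None of 14 nervous system genes (0.18) and none of 10 tested lectin-like receptor genes of 62 (0.44) passed, and no taste receptor gene of 24 was high enough to be tested. On the share 4 of 5 pluripotency and germ line, 3 of 10 cell cycle and 7 of 13 chromatin genes were higher, among them Ncapd2, a condensin subunit gene (0.14, adjusted p = 0.0307), and Lrp6, a Wnt co-receptor gene (0.13, adjusted p = 0.0338).

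In D5 total RNA was higher along the arm up to Mettl20. Against Cast WT at days 2 to 7, 8 against 11 replicates, 121 of 205 members tested were called higher (3.44% of all genes tested) and none lower (4.88%). All 121 lay in Ninj2 to Mettl20, whose 202 members had a median log2 fold change of 0.58 with 187 above 0, against 0.015 over all genes. Amn1, 2810474O19Rik and Bicd1 had a median of 0.03 and none passed. The Cast share was called higher for 126 of 144 members (1.94%) and lower for none (0.429%), with a median difference of 0.167. Of 141 genes of Ninj2 to Mettl20 tested on both, 96 passed on both and 30 on the share alone, with total RNA changes of these 30 from -0.65 to 0.93 and a median of 0.25. Leaving out any 1 replicate gave 106 to 123 calls on total RNA and 121 to 127 on the share. Here and in the other comparisons of clones, the replicates are days of a few courses of each clone. Their p-values thus do not measure the spread between clones. Feeder markers summed to 8.3 to 116 RPM in D5 and 8.1 to 99.4 in Cast WT on these days, and their part in the result was not tested.

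Against G6, the other KO clone of the line, 114 of 210 members were called higher in D5 (9.09%) and 4 lower (10.8%), and the share was higher for 131 of 146 (3.47%) and lower for none (0.636%). The median log2 fold change was 0.49. The 4 lower members were Gm6614 (-2.64), Pde3a (-0.67), Dennd5b and Amn1. By list, 5 of 5 pluripotency and germ line, 6 of 7 glycolysis, 8 of 10 cell cycle, 10 of 13 chromatin, 5 of 15 nervous system and 3 of 9 lectin-like receptor genes were higher. Both D5 comparisons share the D5 replicates. G6 against Cast WT, which shares the WT replicates with D5 against Cast WT, called 5 of 204 members higher (1.15%) and 1 lower (0.632%), with a median of 0.024. The higher members were 9330179D12Rik (0.91), Itpr2 (0.49), Etv6 (0.45), Tspan9 (0.37) and Dennd5b (0.25), and the lower was Clec4a4 (-1.02). Of the lists, 1 of 13 chromatin genes (Etv6) was higher and 1 of 8 lectin-like receptor genes (Clec4a4) lower. On the share limma called none of 142 (0.156%), with 11 at an unadjusted p under 0.05 and none by the edgeR interaction of allele and group.

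Genes of most functional lists of the arm were higher in D5 than in Cast WT, and no list member was called lower. Over the whole arm 121 of 205 members were called higher on total RNA (3.44% of all genes tested). On the share 126 of 144 were (1.94%), so the list counts are to be read beside these. Of pluripotency and germ line genes 4 of 5 rose (median 0.76), of glycolysis and metabolism genes 6 of 7 (0.81), of cell cycle and growth genes 9 of 10 (0.68), of chromatin and transcription genes 9 of 13 (0.51) and of nervous system genes 7 of 14 (0.62). None of 9 lectin-like receptor genes passed (0.37). On the share 4 of 5, 5 of 6, 9 of 10, 12 of 13 and 8 of 9 genes of the first 5 lists were higher. Phc1 was at 126, 259 and 476 RPM (lowest, median and highest) in D5 and at 60.1, 119 and 337 in Cast WT, a rise of 0.76 (SE 0.10, adjusted p = 0.0001) over ranges that overlap across days. Ldhb, the heart-type lactate dehydrogenase subunit, was at 78.4, 109 and 126 RPM against 30.7, 49.0 and 72.4, with no overlap (1.03, SE 0.14, adjusted p = 0.000139). Gapdh, lower in Dom WT replicate 2, was higher in D5, at 137, 198 and 276 RPM against 77.7, 144 and 166 (0.65, SE 0.10, adjusted p = 0.00094).

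Kdm5a, an H3K4 demethylase gene of Ninj2 to A2m, rose in D5 (0.51, SE 0.07, share difference 0.18) and did not pass between the Dom WT courses (-0.14, share -0.03), where it lies proximal of the border. Dppa3 rose by 0.91 (SE 0.18, adjusted p = 0.004), Gdf3 by 0.64 (adjusted p = 0.0308) and Slc2a3 by 0.90 (adjusted p = 0.0066). Cdkn1b, an inhibitor of cyclin-dependent kinases, rose by 0.83, Ncapd2 by 0.87, Rad51ap1, a homologous recombination gene, by 0.70, Lrp6 by 0.57 and Magohb, an exon junction complex gene, by 0.66. Ccnd2, a D-type cyclin gene, rose by 1.13 (SE 0.24, adjusted p = 0.0071) against Cast WT, where its share difference of 0.10 did not pass. Against G6 its total RNA change of 0.32 did not pass, while its share was called higher.

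The members that departed from the D5 block fell in separate groups. Among genes with a mean of at least 50 allelic fragments A2m rose most, at 4.11, 8.66 and 13.7 RPM against 0.742, 2.73 and 6.35 in Cast WT and 1.04, 1.67 and 4.11 in G6 (1.37, SE 0.19, adjusted p = 0.0002). Over all called members the highest also included Gm8994, Kcna1, a potassium channel gene, and Clstn3, a synaptic adhesion gene (1.17, SE 0.21, adjusted p = 0.0027). Among the genes with that many fragments Gm15987 had the lowest total RNA change (-0.65, adjusted p = 0.135) although its share passed (0.13, adjusted p = 0.0435). Plbd1 (-0.11), Pde3a, a cyclic nucleotide phosphodiesterase gene (0.08), and Tead4 (0.08) had total RNA that did not pass with shares that differed by 0.17, 0.13 and 0.18. Chd4 (0.24, adjusted p = 0.0604) and Etv6, an ETS repressor gene (0.21), also passed on the share only. Tpi1, triose phosphate isomerase, went the other way, with a rise of 0.81 (adjusted p = 0.0066) and a share difference of 0.029 that did not pass (adjusted p = 0.0705), and it has pseudogenes that can take up reads. Both alleles of Tpi1 were higher, with ratios of D5 to Cast WT of 2.24 for Cast and 1.71 for Dom fragments. Its median Cast share over all replicates was only 0.1235.

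At the distal end of the D5 block the total RNA and the share changed over neighbouring genes. Mettl20 rose by 0.72 (SE 0.17, adjusted p = 0.0152) with a share difference of 0.23. Dennd5b, the informative gene after Fam60a, was at 46.5, 55.9 and 96.8 RPM in D5 and 55.0, 64.6 and 95.2 in Cast WT (-0.07, not passed), with a share difference of 0.079 (adjusted p = 0.0256). Amn1 was at 50.4, 68.6 and 99.6 RPM in D5, 66.0, 74.5 and 108 in Cast WT and 56.7, 88.5 and 105 in G6, with a change of -0.17 that did not pass and a share difference of -0.0004 (adjusted p = 0.993). Against G6 it was lower in D5 (-0.31, SE 0.10, adjusted p = 0.0363), as was Dennd5b (-0.32, SE 0.08, adjusted p = 0.0122). 2810474O19Rik and Bicd1, the last genes, had 0.03 and 0.05 on total RNA and 0.008 and 0.019 on the share, and none passed. In Dom WT replicate 2 these same genes lay in the lowered part, with Amn1 at -0.88 (SE 0.08, adjusted p = 0.00475), 2810474O19Rik at -0.63 and Bicd1 at -0.82.

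A3 against Dom WT depends on which Dom WT course is used. Over both, 8 against 8 replicates, 1 of 207 members was called higher, Ccnd2 (0.61, SE 0.10, adjusted p = 0.019; background 0.376%), and 8 lower (0.427%). These were Cops7a, Ing4, Nop2, Ncapd2, 9630033F20Rik, Cdkn1b, 1190002F15Rik and C2cd5, with Cdkn1b at -0.62 (SE 0.11, adjusted p = 0.0218) and Ncapd2 at -0.38 (SE 0.07, adjusted p = 0.0276). Of the lists, 1 of 10 cell cycle genes was higher and 2 lower, and 2 of 13 chromatin genes (Ing4 and Nop2) were lower. Members of M6pr to Etnk1 had a median of -0.36 and members of Sox5 to Bicd1 of 0.26, with 21 of 150 and 35 of 38 above 0. Against Dom WT course 1 alone no member passed by edgeR (39 at an unadjusted p under 0.05, background 0.197%), with a median over members of -0.09. Against course 2 alone 60 of 210 did, 18 higher (0.311% of all genes tested) and 42 lower (0.856%), so that members were 60 of the 184 genes called among 15763. On the share limma called Plbd1 alone of 144 over both courses (lower, -0.15, adjusted p = 0.0328; background 0.0928%), 1 against course 1 (background 2.11%) and 90 against course 2 (background 1.41%, 168 genes). Without 1 library the total RNA calls ranged from 0 to 23, with 0 without day 5 of Dom WT replicate 2, day 2 of A3 replicate 2 or day 5 of A3 replicate 1, and 23 without day 7 of Dom WT replicate 1.

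A3 itself had no step. Its median shares at days 2 to 7 were 0.468 to 0.488 for M6pr to Etnk1 and 0.448 to 0.482 for Sox5 to Bicd1, and 0.481 to 0.495 and 0.466 to 0.488 from day 15. At days 15 to 52, with 1 library per clone and day, edgeR called none of 207 members (0.0%; 65 at an unadjusted p under 0.05 and 14 by DESeq2). Limma called none of 137 on the share (0.0%; 95 unadjusted, and none by the edgeR interaction). The median log2 fold changes of A3 against Dom WT were -0.39 for M6pr to Etnk1 and 0.62 for Sox5 to Bicd1 on these days, of which 3 of 4 Dom WT libraries carry the steps.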

How the data were processed

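ChrRNA-seq libraries were made with a stranded total RNA kit. Per the labels and the methods of the study, the authors removed ribosomal reads with Bowtie2 (2.3.2), aligned the rest to mm10 with the strain SNPs masked using STAR (2.4.2a), split reads by allele by SNPsplit, then counted the fragments of each gene with featureCounts (1.5.2). The deposited values are raw counts per gene over the whole gene body, introns included, for all, Dom and Cast fragments, and deposited gene starts lie 1 base before the RefSeq start in Pex26, Etnk1 and Mettl20. Reads without a SNP carry no allele, and genes with near-identical copies can lose or gain reads.

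RPM are counts scaled to the total fragments of the library. Total RNA was tested with edgeR (4.0.16; TMM, filterByExpr, quasi-likelihood F test) and the Cast share with limma (3.58.1; eBayes with trend) for genes with at least 10 allelic fragments in every library of the fit, both over all genes of the tables with day as a factor and Benjamini-Hochberg adjustment at 0.05. DESeq2 (1.42.0) was an alternative. The R1 and R2 libraries of a D5 or G6 replicate were summed, and the labels do not say how these differ. Their chi-square per degree of freedom was 18.4 to 95.1, against 7.8 to 180 between replicates. No library pair thus agreed within sampling noise. Both tests and the step reading recovered known changes in simulated data, with independent libraries and with steps near the size of those read here. These runs check the code and do not measure how sure the calls or borders are.

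Same-numbered D5 and G6 replicates deviated together on all 4 days (correlations of 0.446 to 0.845), which was taken as pairing, and the block is given with the alternatives. The named genes were up to 8 called members per direction and comparison with the largest fold change, the informative genes at each border, the 5 members farthest from the median of a part among those with a mean of at least 50 allelic fragments, and the members of 7 lists. Some listed genes are not reported here. Members, parts and lists were chosen with earlier results of these data known. Counts of fragments bound the precision, and intervals would cover counting error only.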

Additional observations from a re-analysis of the deposited data

Results flagged for a closer look

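The lean of the distal arm to the Cast allele in D5 was also present in 5 D5 libraries that entered no test. The median Cast share of Ninj2 to Mettl20 was 0.639 and 0.663 in replicates 1 and 2 of uninduced D5 mESCs, before doxycycline was given. The uninduced A3 and G6 replicates (3) were at 0.474 to 0.482, so the uninduced D5 replicates lay above all of them. It was 0.653 at day 15, 0.653 at day 21 and 0.656 at day 35 of D5, against 0.482 to 0.507 over 6 Cast WT and G6 libraries of these days. No test was run with 1 library per day.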

How the results depend on the processing

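Counts are members called. Between the Dom WT courses they ranged from 8 to 56 on total RNA (58 over all libraries) and from 15 to 18 on the share (54) without 1 library, and the share gave 94 with the edgeR interaction of allele and group. A3 against Dom WT gave 0 to 23 without 1 library on total RNA (9 in all), 16 with library totals, 39 with DESeq2, 16 with the replicate block, 39 with crossed numbers in the block (added after seeing the data), 0 with Dom WT course 1 and 60 with course 2. On the share (1) these were 0 to 3 without 1 library, 8 with the interaction, 8 with the block, 12 crossed and 90 with course 2. G6 against Cast WT gave 2 to 15 without 1 library (6), 17 with DESeq2 and 15 with the block, and 0 on the share. Late A3 gave 14 with DESeq2 on total RNA and 0 without any 1 library on both measures. D5 gave 106 to 123 (121) and 121 to 127 (126) against Cast WT and 108 to 124 (118) and 124 to 129 (131) against G6, where the block gave 135 and 136. The block moved no other count of members by over 1.5 times. In iXist-ChrX-Dom same-numbered A3 and WT replicates correlated at -0.541 to -0.762.

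Over all genes, calls between the Dom WT courses were 978 on total RNA, with 1847 by DESeq2 and 19 to 999 without 1 library, and 135 on the share, with 560 by the interaction, 85 at 5 allelic fragments and 15 to 18 without 1 library. For A3 they were 124 on total RNA, with 558 by DESeq2, 540 with the crossed block, 31 with course 1, 184 with course 2 and 9 to 251 without 1 library, and 22 on the share, with 100 by the interaction, 61 and 73 with the block as numbered and crossed, and 253 and 168 with courses 1 and 2. For late A3 they were 0, with 186 by DESeq2 and 52 by the interaction. For G6 they were 273 on total RNA, with 651 by DESeq2, 1079 with the block and 153 with R1 and R2 kept apart. Without 1 library they were 76 to 693. On the share they were 18, with 97 by the interaction and 8 with R1 and R2 apart. For D5 they were 1285 against Cast WT, with 2237 with the block and 829 to 1490 without 1 library, and 3074 against G6, with 5184 with the block, and on the share 276 and 484, with 426 and 821 by the interaction. Library totals in place of TMM moved the median of all genes in D5 against G6 by 0.12 (log2), with 65.5% of calls higher in place of 45.7%, and in D5 against Cast WT 56.8% in place of 41.3%, in A3 against Dom WT 31.8% in place of 46.8% and in G6 against Cast WT 49.8% in place of 64.5%.

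The proximal border of Dom WT replicate 2 moved by 1 gene with parts of 15 genes and with a reference mean. Borders numbered 4 in Dom WT replicate 2 and at day 21 with steps of 0.05, 3 at day 21 against a reference mean, and at day 52 they numbered 1 with parts of 15 genes, 1 over the whole chromosome and 4 with parts of 3 (added). D5 courses with a border were 5 with parts of 5 genes, 6 with steps of 0.05, 7 over the whole chromosome and 6 with parts of 3 (0 in the reported setting), and such courses among the balanced replicates were 1, 3, 1 and 7. No call reversed, and where no cause is given, the cause was not tested. Genes with few allelic fragments limit the share to 147 of 368 members.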
